A study of Homo sapiens with 12 samples.

Results

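The transcripts described here are 10 genes of the Notch pathway, namely the receptors NOTCH1, NOTCH2 and NOTCH3, the ligands JAG1, JAG2 and DLL1, the glycosyltransferase LFNG and the transcriptional targets HES1, HES4 and HEY1. They were found by symbol among the 28747 gene identifiers of the count table, and each was followed in all 12 libraries. The libraries were made from DU145 cells, a long-established line from a human prostate cancer, and fall into 4 groups of 3 independent replicates. Cells carrying a control hairpin (shCtrl) or a hairpin against the σ1 receptor (σ1R; shSigma) were grown as adherent cultures or as tumor spheres. The sphere culture enriches for stem-like cells, and the study compared the consequences of σ1R depletion in both conditions. The hairpins were delivered by lentivirus into stably selected lines. The study used a pair of σ1R hairpins, and which of them the sequenced cells carried is not stated, so the hairpin line and the loss of σ1R cannot be told apart. Sphere culture, as the study's methods give it, also differed from adherent culture in medium, in the serum and growth factors supplied and in the coating of the plates. Growth as spheres and the medium can therefore not be told apart either.

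Notch receptors are cell-surface proteins that are cut when a Jagged or Delta ligand on a neighbouring cell binds them. The freed intracellular part enters the nucleus, joins the DNA-binding protein RBPJ and a Mastermind coactivator, and switches on HES and HEY genes, which encode repressors. LFNG adds sugars to the receptor and so changes which ligands it answers to. In the prostate the pathway is known for its part in the maintenance of basal and progenitor cells and in epithelial differentiation.

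Total counts ranged from 16472722 to 26957777 per library, and levels are given as CPM (counts scaled to library size and composition). KRT8 and KRT18, keratins of luminal epithelium, were at group means of 234 to 502 CPM, while KLK3, FOLH1, DCN, LUM, PTPRC, PECAM1 and CD3E had group means of at most 0.292 CPM. CDH1 and EPCAM, adhesion molecules of epithelial cells, differed widely between the groups. CDH1 was at 26.8 CPM in adherent shCtrl, 12 CPM in adherent shSigma, 727 CPM in shCtrl spheres and 27.8 CPM in shSigma spheres (means, n = 3), and EPCAM was at 235, 30.9, 613 and 61.9 CPM in the same order. The part of this difference in the Notch values below was not tested. Since whole cultures were sequenced, fewer cells of a type and less RNA per cell cannot be told apart.

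The regulatory sequence of the targets is shown first, since HES1 and HES4 both rose in control spheres. With the σ1R hairpin there, HES1 was called lower. HES4 was not called in the main fit, although it was called lower with a correction for GC content and a replicate block. The RBPJ core TGGGAA was searched on both strands in the 250 bases upstream of the RefSeq start sites (GRCh38.p14), and 8 of the 10 genes were in that set, DLL1 and HEY1 being the others. HES1 lies on chromosome 3 and held the core at positions -84 and -70, counted from the start site. Its upstream sequence, chr3:194135898-194136147 on the plus strand, is given with the core in capitals.

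HES1: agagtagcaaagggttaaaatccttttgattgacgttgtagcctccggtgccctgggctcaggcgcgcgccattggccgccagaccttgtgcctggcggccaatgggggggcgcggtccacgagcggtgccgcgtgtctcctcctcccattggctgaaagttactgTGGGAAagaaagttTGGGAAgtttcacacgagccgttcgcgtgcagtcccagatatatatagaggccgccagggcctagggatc

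HES4 held the core once, at position -76. The windows of 30 bases around the cores, chr3:194136059-194136088 on the plus strand for HES1 and chr1:1000156-1000185 on the minus strand for HES4, allow a direct comparison.

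HES1: tactgTGGGAAagaaagttTGGGAAgtttc

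HES4: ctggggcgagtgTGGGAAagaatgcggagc

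The longest run shared by these windows, tgTGGGAAagaa, had 12 bases and contained the core. LFNG, which has more than 1 start site in that set, was the other member with the core, at position -248 of the downstream start, and its upstream start had no match to any motif searched, while NOTCH1, NOTCH2, NOTCH3, JAG1 and JAG2 had no match in this stretch. Of all 35116 promoters, 20.8% held the core. HES1 also held CACGCG, a site that HES and HEY repressors can bind, at positions -120 and -47, and the N box CACNAG at positions -165, -132 and -58. CACGCG was present in 9.72% and CACNAG in 32.0% of all promoters. JAG2 held CACGCG at position -236, and NOTCH3 and the downstream start of LFNG held CACNAG at positions -211 and -53. CACGTG, found in 6.34% of promoters, had no match in the 8 members searched. These matches describe the letters only.

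Before the comparisons, the levels of the members were set beside each other as CPM per kilobase of exon. In adherent shCtrl cells NOTCH2 was the highest member at 11.9 ± 0.932 CPM per kb (SD, n = 3), apart from all others. JAG2 at 2.18, HES4 at 1.81 and NOTCH3 at 1.59 CPM per kb followed with overlapping libraries, then HES1 at 0.993 CPM per kb. NOTCH1, JAG1, HEY1 and LFNG came last at 0.0905 to 0.234 CPM per kb, neighbours in this order overlapping. In shCtrl spheres the order was different. NOTCH3 at 13.4 ± 2.90 and HES1 at 9.93 ± 1.87 CPM per kb overlapped at the top, NOTCH2 at 7.09 ± 0.710 CPM per kb was separate from HES1 above it and from JAG2 at 5.10 CPM per kb below it, and HES4 stood at 5.04 CPM per kb. In shSigma spheres NOTCH3 at 9.55, JAG2 at 7.42 and HES4 at 5.14 CPM per kb preceded NOTCH2 at 4.75 CPM per kb, each overlapping its neighbour, and HES1 followed at 2.24 CPM per kb. In adherent shSigma cells NOTCH2 led at 5.79 CPM per kb, above NOTCH3 at 3.56 and JAG2 at 3.32 CPM per kb, which overlapped. DLL1, a Delta ligand, was listed at 0 counts in all 12 libraries. NOTCH4, HES5 and the coactivator MAML1 of the wider pathway were also listed at 0 throughout. MAML1 is known to be expressed in most cell types, so these listed zeros are not read here as absence of RNA.

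**Figure D1:**
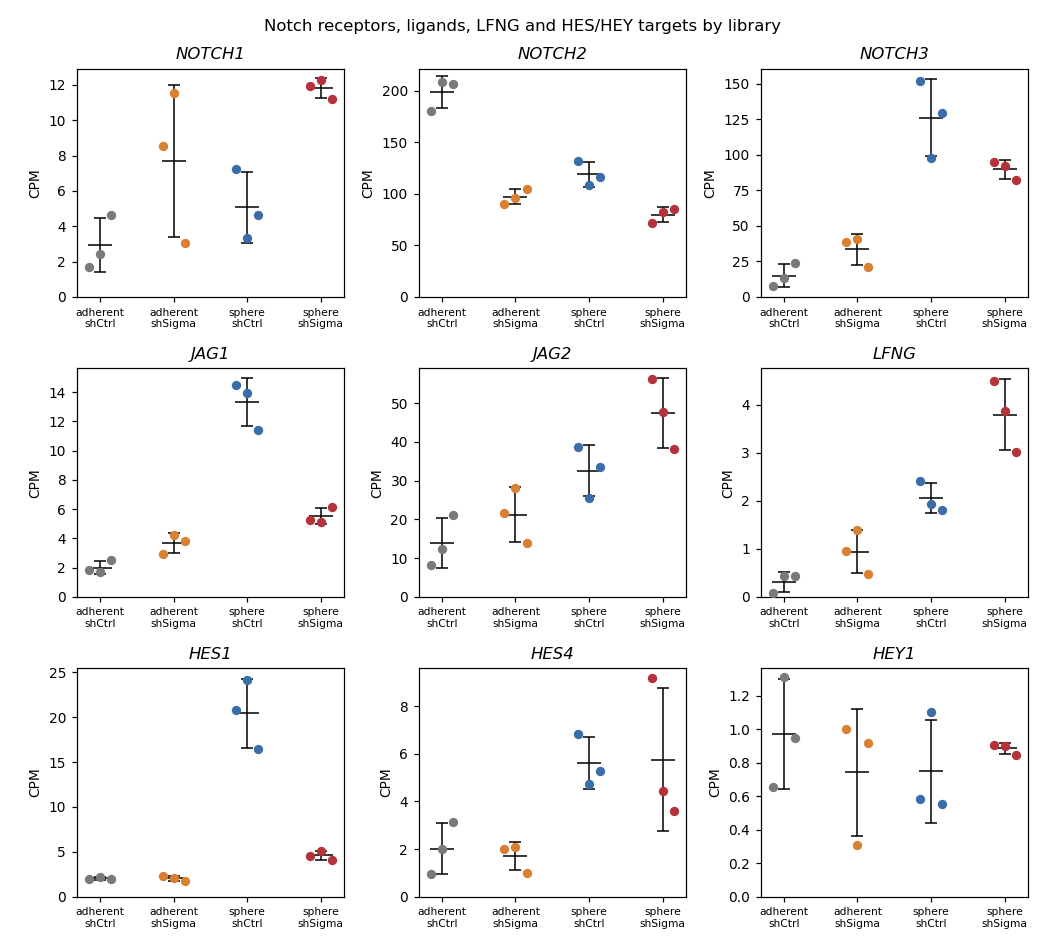
CPM of 9 members in each of the 12 libraries (points, replicates 1 to 3 from left to right), with the group mean and SD (black); each panel has its own linear axis from 0. HES1 lies between 1.74 and 2.33 CPM in both adherent groups, between 16.4 and 24.1 CPM in shCtrl spheres and between 4.13 and 5.14 CPM in shSigma spheres.

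A change with culture was tested first in control cells, to see how the pathway stands in spheres without the σ1R hairpin. In shCtrl cells 6 of the 9 members tested rose in spheres, namely NOTCH3, JAG1, JAG2, LFNG, HES1 and HES4, and NOTCH2 fell. All 6 rose by more than 1 on the log2 scale. With the correction for GC content described below, JAG2 (0.49) and HES4 (0.60) rose by less than 1. By edgeR's quasi-likelihood test at a Benjamini-Hochberg adjusted p under 0.05, 27.4% of the 13800 genes tested were called higher and 26.3% lower in this comparison, and 10.8% were higher with a log2 fold change over 1 as well. The median log2 fold change was 1.47 over the 9 members and 0.037 over all genes tested. DLL1 did not pass the filter on low counts.

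HES1, a repressor and the best known direct Notch target, moved most. It was at 1.92, 2.20 and 2.01 CPM in adherent shCtrl and at 20.8, 24.1 and 16.4 CPM in sphere shCtrl libraries. The groups were far apart, at 50 to 52 against 326 to 437 counts, and the mean in spheres was 10-fold that in adherent cells (log2 fold change 3.32, SE 0.17, adjusted p = 3.88e-06). NOTCH3, a receptor, was at 7.83, 13.3 and 23.6 CPM in adherent shCtrl and at 152, 97.5 and 129 CPM in sphere shCtrl libraries. Its lowest sphere library was above its highest adherent library (log2 fold change 3.08, SE 0.39, adjusted p = 0.000716). JAG1, a ligand, was at 1.80, 1.69 and 2.49 CPM in adherent shCtrl and at 14.5, 14.0 and 11.4 CPM in sphere shCtrl libraries. This gave a log2 fold change of 2.73 (SE 0.18, adjusted p = 1.28e-05) with no overlap.

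LFNG rose from 0.0768, 0.423 and 0.434 CPM to 2.40, 1.93 and 1.81 CPM (log2 fold change 2.71, SE 0.41, adjusted p = 0.000911). The adherent shCtrl values rest on 2, 10 and 11 counts, and a fitted fold at such counts depends on the prior count. HES4 was at 0.960, 1.99 and 3.12 CPM in adherent and at 6.85, 4.75 and 5.29 CPM in sphere shCtrl libraries, which did not overlap (log2 fold change 1.47, SE 0.38, adjusted p = 0.0145). JAG2 was at 8.33, 12.4 and 21.1 CPM in adherent and at 38.8, 25.6 and 33.5 CPM in sphere shCtrl libraries (log2 fold change 1.23, SE 0.34, adjusted p = 0.0196). NOTCH2 was the member that fell, from 181, 209 and 206 CPM to 132, 109 and 116 CPM, with no overlap (log2 fold change -0.74, SE 0.091, adjusted p = 0.000308). The calls of JAG2 and HES4 depended on single libraries. JAG2 lost its call without adherent shCtrl replicate 2, without sphere shCtrl replicate 1 or without sphere shCtrl replicate 3 (log2 fold changes 1.15, 1.06 and 1.18), and HES4 without adherent shCtrl replicate 2 (1.46, adjusted p = 0.0529). JAG2 was also not called with no filter (adjusted p = 0.0824) or after the median of the 40 nearest genes was subtracted (0.72, adjusted p = 0.112). After the same subtraction NOTCH2 was at -0.35 and still called (adjusted p = 0.0126).

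NOTCH1 was at 1.69, 2.45 and 4.66 CPM in adherent and at 7.26, 3.31 and 4.64 CPM in sphere shCtrl libraries. These groups overlapped and the gene did not pass the test (log2 fold change 0.78, SE 0.43, adjusted p = 0.164), although it did without adherent shCtrl replicate 3 (1.23, adjusted p = 0.00965). HEY1, a target that forms pairs with HES proteins, was at 0.653, 1.31 and 0.947 CPM in adherent and at 0.586, 1.10 and 0.554 CPM in sphere shCtrl libraries. With 10 to 31 counts per library no difference was detectable (log2 fold change -0.37, SE 0.37, adjusted p = 0.431).

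The same culture comparison in σ1R-depleted cells gave the same 6 members higher and NOTCH2 lower, of which 5 rose by more than 1 on the log2 scale. With the GC correction NOTCH3 (0.90), JAG2 (0.51) and HES4 (0.94) of these rose by less than 1. In this comparison 21.9% of the 13622 genes tested were called higher and 25.2% lower, and 5.76% were higher past a log2 fold change of 1. HES1 rose from 2.33, 2.05 and 1.74 CPM to 4.59, 5.14 and 4.13 CPM, a mean 2.27-fold that in adherent cells (log2 fold change 1.20, SE 0.17, adjusted p = 0.00111). JAG1 rose from 2.90, 4.25 and 3.81 CPM to 5.24, 5.14 and 6.15 CPM (0.62, SE 0.17, adjusted p = 0.0178), and NOTCH3 from 38.6, 40.9 and 21 CPM to 94.8, 92.4 and 82.5 CPM (1.44, SE 0.27, adjusted p = 0.00843). None of these groups overlapped. LFNG, at 0.952, 1.38 and 0.482 CPM in adherent and 4.49, 3.87 and 3.02 CPM in sphere shSigma libraries, had a log2 fold change of 2.04 (SE 0.33, adjusted p = 0.00194). JAG2 had one of 1.18 (SE 0.30, adjusted p = 0.0223), HES4 of 1.77 (SE 0.47, adjusted p = 0.026) and NOTCH2 of -0.26 (SE 0.078, adjusted p = 0.0256). NOTCH1 at 0.63 (SE 0.46, adjusted p = 0.296) and HEY1 at 0.26 (SE 0.38, adjusted p = 0.593) did not pass.

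The weaker calls in shSigma cells depended on single libraries. JAG1 lost its call without adherent shSigma replicate 1 (0.48, adjusted p = 0.0582) or sphere shSigma replicate 3 (0.53, adjusted p = 0.0689). JAG2 lost it without adherent shSigma replicate 1, sphere shSigma replicate 1 or sphere shSigma replicate 2 (1.20, 1.04 and 1.18). HES4 lost it without any 1 of the 3 adherent shSigma libraries (1.49 to 1.96), and NOTCH2 without adherent shSigma replicate 2, sphere shSigma replicate 1 or sphere shSigma replicate 2 (-0.26, -0.19 and -0.28). With no filter JAG2 (adjusted p = 0.0668) and HES4 (adjusted p = 0.0607) were not called, and after subtraction of the median of the 40 nearest genes neither NOTCH2 (-0.054, adjusted p = 0.598) nor HES4 (1.26, adjusted p = 0.0769) was. HES1, NOTCH3 and LFNG kept their calls whichever library was left out. The 2 culture comparisons rest on different libraries, but each shares its groups with the knockdown comparisons below.

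The σ1R knockdown in adherent cells moved few members past the test. JAG1 rose and NOTCH2 fell, and the other 7 members tested were not called. Of the 13764 genes tested in this comparison 22.3% were called higher and 27.7% lower, so 1 of 9 members in each direction was below that background. More members were called higher by DESeq2 and in 1 fit of all libraries. The median log2 fold change was 0.56 over the 9 members and -0.014 over all genes tested.

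NOTCH2 was at 181, 209 and 206 CPM in adherent shCtrl and at 90.3, 95.8 and 105 CPM in adherent shSigma libraries. Its mean in depleted cells was 48.8% of that in control cells, with no overlap (log2 fold change -1.10, SE 0.073, adjusted p = 3.15e-05). NOTCH2 lies on chromosome 1 at 119911553 to 120100779 of GRCh38, and the 40 tested genes nearest to it had a median log2 fold change of -0.56. NOTCH2 was still called after this median was subtracted, at -0.54 (adjusted p = 0.000814). NOTCH2NLA, a near-identical partial copy whose reads may be split with NOTCH2, had 4 to 18 counts per library against at least 1417 for NOTCH2. JAG1 rose from 1.80, 1.69 and 2.49 CPM to 2.90, 4.25 and 3.81 CPM, with no overlap (log2 fold change 0.81, SE 0.21, adjusted p = 0.0152). Without adherent shCtrl replicate 2 this was 0.76 (adjusted p = 0.051).

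HES1 differed little in adherent cells, at 1.92, 2.20 and 2.01 CPM in shCtrl and 2.33, 2.05 and 1.74 CPM in shSigma libraries (log2 fold change -0.062, SE 0.19, adjusted p = 0.804). The groups overlapped, and the sign turned when adherent shCtrl replicate 2 (0.050) or adherent shSigma replicate 3 (0.068) was left out. HES4 had a log2 fold change of -0.29 (SE 0.47, adjusted p = 0.636) and became 0.14 without adherent shCtrl replicate 3. HEY1 had one of -0.43 (SE 0.43, adjusted p = 0.443), from 1.00, 0.307 and 0.917 CPM in adherent shSigma libraries.

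Some members had large but uncertain differences in adherent cells. NOTCH1 was at 1.69, 2.45 and 4.66 CPM in shCtrl and at 8.52, 11.5 and 3.04 CPM in shSigma libraries, which overlapped (log2 fold change 1.35, SE 0.58, adjusted p = 0.104). NOTCH3 at 1.12 (SE 0.45, adjusted p = 0.0838), JAG2 at 0.56 (SE 0.40, adjusted p = 0.293) and LFNG at 1.53 (SE 0.60, adjusted p = 0.0687) did not pass either. These outcomes depended on the fit. NOTCH1 was called by DESeq2 (1.36, adjusted p = 0.00355). In 1 edgeR fit of all libraries NOTCH1 (adjusted p = 0.041), NOTCH3 (adjusted p = 0.0268) and LFNG (adjusted p = 0.0127) were called. The LFNG groups did not overlap, as was the case for 57.9% of all genes tested.

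These uncertain members shared a property of sequence. The longest transcripts of NOTCH1, NOTCH3, JAG2, LFNG and HES4 had 63.1 to 73.9% G and C, against 45% to 50% in NOTCH2, JAG1, HES1 and HEY1 and a median of 47.9% over the genes tested. In all 5 GC-rich members adherent shCtrl replicate 1 was the lowest and replicate 3 the highest of its group, and adherent shSigma replicate 3 was the lowest of its group. Of the other 4 members none showed the first order and 1 showed the second. The whole libraries varied alike. The deviation of a gene from its group mean changed by -0.19 log2 units per 10 points of GC content in adherent shCtrl replicate 1, by 0.19 in replicate 3 and by -0.21 in adherent shSigma replicate 3, whereas the sphere libraries lay between -0.078 and 0.053. With counts corrected for GC content, an alternative chosen after the data were seen, the log2 fold changes in adherent cells were 0.99 for NOTCH1 (adjusted p = 0.0129), 0.84 for NOTCH3 (adjusted p = 0.00156), 1.22 for LFNG (adjusted p = 0.0216) and -0.64 for HES4 (adjusted p = 0.0162), all past the test. With a replicate block as well, NOTCH1 (0.94, adjusted p = 0.0635) and HES4 (-0.60, adjusted p = 0.0612) did not pass. NOTCH1 and NOTCH3 also passed when adherent shSigma replicate 3 was left out (1.74 and 1.39), NOTCH3 when adherent shCtrl replicate 3 was left out (1.59), and LFNG without adherent shSigma replicate 3 (1.87). In spheres against adherent cells the same correction left HES1 (3.33 in shCtrl and 1.25 in shSigma) and JAG1 (2.75 and 0.67) near their uncorrected values. The rises of the GC-rich members became smaller and were still called, at 2.44 and 0.90 for NOTCH3, 2.04 and 1.47 for LFNG, 0.49 and 0.51 for JAG2 and 0.60 and 0.94 for HES4, while NOTCH1 was at 0.10 and 0.090.

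**Figure D2:**
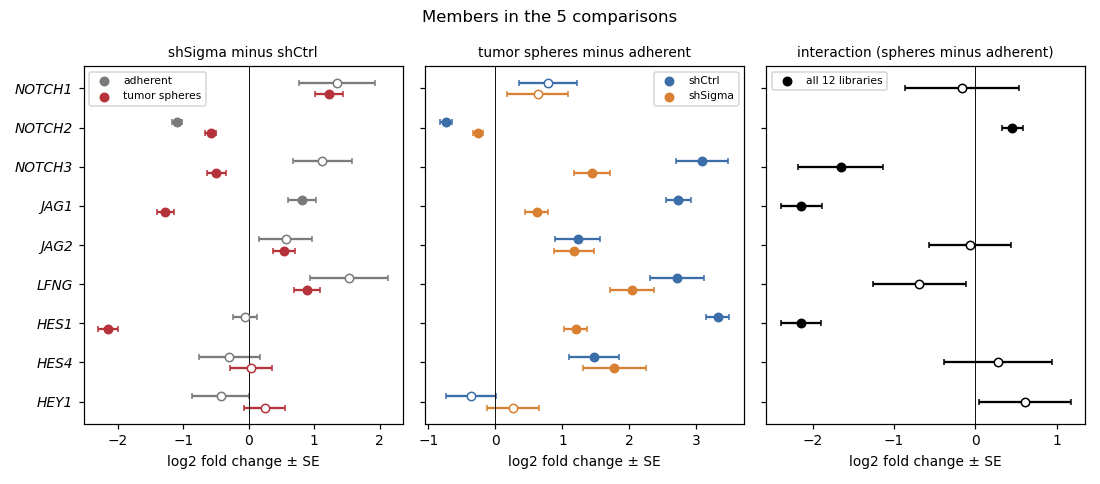
Log2 fold change with its SE (horizontal bar) of 9 members for the σ1R knockdown in each culture, for spheres against adherent cells in each line, and for the difference of the knockdown effects between cultures; filled points have an adjusted p under 0.05 and open points do not. HES1 and JAG1 are near or above 0 for the knockdown in adherent cells and at -2.14 and -1.27 in spheres.

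In tumor spheres the knockdown moved 7 of the 9 members tested, where 61.1% of all genes were called. NOTCH1, JAG2 and LFNG rose, and NOTCH2, NOTCH3, JAG1 and HES1 fell. Among all 13774 genes tested here 30.2% were called higher and 30.9% lower. Their median, on the log2 scale, was 0.036, against 0.00153 over all genes, since the members moved in both directions.

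HES1 fell furthest, from 20.8, 24.1 and 16.4 CPM in shCtrl to 4.59, 5.14 and 4.13 CPM in shSigma spheres. All shSigma libraries were far below all shCtrl libraries, at 78 to 97 against 326 to 437 counts, and the mean was 22.6% of that in control spheres (log2 fold change -2.14, SE 0.15, adjusted p = 3.34e-07). JAG1 fell from 14.5, 14.0 and 11.4 CPM to 5.24, 5.14 and 6.15 CPM, with no overlap (log2 fold change -1.27, SE 0.13, adjusted p = 4.69e-06). The changes of HES1 and JAG1 were called in every alternative computed and with any 1 library left out. HES4 and HEY1, by contrast, were not called in the main fit. With the GC correction and the replicate block, however, HES4 was called lower (-0.39, adjusted p = 0.0435). HES4 was at 6.85, 4.75 and 5.29 CPM in shCtrl and at 9.17, 4.45 and 3.6 CPM in shSigma spheres, where replicate 1 stood above all other libraries (log2 fold change 0.036, SE 0.32, adjusted p = 0.928), and the value was -0.47 without that library and -0.074 without sphere shCtrl replicate 2. HEY1 at 0.907, 0.901 and 0.848 CPM in shSigma spheres lay within the range of the shCtrl spheres (0.24, SE 0.32, adjusted p = 0.522).

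The receptors moved in different directions. NOTCH1 rose from 7.26, 3.31 and 4.64 CPM to 11.9, 12.3 and 11.2 CPM, with no overlap (log2 fold change 1.22, SE 0.22, adjusted p = 0.000931). NOTCH2 fell from 132, 109 and 116 CPM to 71.4, 82.3 and 84.8 CPM (-0.58, SE 0.085, adjusted p = 0.000147), and NOTCH3 fell from 152, 97.5 and 129 CPM to 94.8, 92.4 and 82.5 CPM (-0.49, SE 0.14, adjusted p = 0.0125). The highest shSigma library of NOTCH3 lay only just below its lowest shCtrl library, and its call was lost without sphere shCtrl replicate 3 (-0.47, adjusted p = 0.0566), with no filter on low counts (adjusted p = 0.119) and in 1 fit of all libraries (adjusted p = 0.283). The 40 tested genes nearest to NOTCH2 had a median log2 fold change of -0.40 in spheres, and after its subtraction NOTCH2 was at -0.18 (adjusted p = 0.0903). NOTCH1 lost its call in 1 fit of all libraries (adjusted p = 0.0611), where all groups share the spread.

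JAG2 rose from 38.8, 25.6 and 33.5 CPM to 56.4, 47.8 and 38.2 CPM (log2 fold change 0.54, SE 0.17, adjusted p = 0.0198), but its groups overlapped. This call was lost without sphere shCtrl replicate 2 (0.39), sphere shCtrl replicate 3 (0.57) or sphere shSigma replicate 1 (0.41), with no filter (adjusted p = 0.144), in 1 fit of all libraries (adjusted p = 0.223) and after the median of the 40 nearest genes was subtracted (0.29, adjusted p = 0.169). LFNG rose from 2.40, 1.93 and 1.81 CPM to 4.49, 3.87 and 3.02 CPM without overlap (0.89, SE 0.20, adjusted p = 0.00205), at 35 to 41 against 57 to 89 counts.

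The makeup of the receptor transcripts changed with these shifts. Per length, NOTCH2 supplied 87.1 ± 5.49% of the summed NOTCH1, NOTCH2 and NOTCH3 signal in adherent shCtrl libraries and 34.3 ± 3.18% in sphere shCtrl libraries (SD, n = 3). NOTCH3 supplied 11.2 ± 4.81% and 63.8 ± 2.85%. In σ1R-depleted cells NOTCH3 supplied 35.1 ± 8.32% in adherent and 62.6 ± 3.17% in sphere libraries, so that its share in spheres overlapped between the lines, at 60.5 to 65.6% in shCtrl and 59.6 to 65.9% in shSigma. NOTCH1 supplied 1.89 ± 0.420% in shCtrl and 6.18 ± 0.103% in shSigma spheres. In adherent libraries it supplied 1.66 ± 0.689% in shCtrl and 5.94 ± 2.87% in shSigma. Of the summed JAG1 and JAG2 signal, JAG1 supplied 22.3 ± 4.43% in shCtrl and 7.62 ± 2.07% in shSigma spheres. These shares are descriptions with no test. They rest on levels without the GC correction, and NOTCH1, NOTCH3 and JAG2 are GC-rich whereas NOTCH2 and JAG1 are not.

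**Figure D3:**
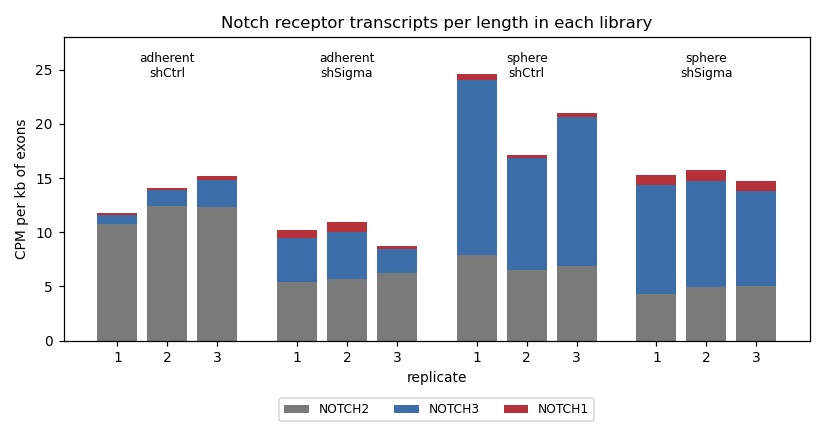
Summed CPM per kb of exon of NOTCH2 (grey), NOTCH3 (blue) and NOTCH1 (red) in each library, as stacked bars from 0. NOTCH2 is the largest part of every adherent bar and NOTCH3 the largest part of every sphere bar, with totals of 8.73 to 15.2 CPM per kb in adherent and 14.7 to 24.6 CPM per kb in sphere libraries.

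Whether the knockdown effect differed between the cultures was tested directly in all 12 libraries, as the log2 fold change in spheres minus that in adherent cells. HES1 at -2.14 (SE 0.24, adjusted p = 2.4e-05), JAG1 at -2.14 (SE 0.25, adjusted p = 3.06e-05) and NOTCH3 at -1.66 (SE 0.52, adjusted p = 0.0416) were lower, and NOTCH2 at 0.46 (SE 0.13, adjusted p = 0.0184) was higher, its fall being smaller in spheres. Of the 14175 genes tested 12.7% were called higher and 15.6% lower. For HES1 the difference joins a fall in spheres with overlapping groups in adherent cells, and for JAG1 a fall in spheres with a rise in adherent cells. The NOTCH3 call was lost with no filter (adjusted p = 0.0843), with a replicate block (adjusted p = 0.0824) and when 1 library was left out in turn, except without adherent shCtrl replicate 3 or adherent shSigma replicate 3, at values from -1.75 to -1.30. NOTCH1 at -0.16 (SE 0.70), JAG2 at -0.066 (SE 0.50), LFNG at -0.69 (SE 0.57), HES4 at 0.28 (SE 0.66) and HEY1 at 0.61 (SE 0.56) were not called, with adjusted p from 0.409 to 0.943. Each of these SEs is wider than the difference seen in NOTCH2, so one of that size was not detectable for them. The signs of NOTCH1, JAG2 and HES4 turned when single libraries were left out, for NOTCH1 at 0.16 to 0.26 without adherent shCtrl replicate 1, adherent shSigma replicate 2 or sphere shCtrl replicate 1, and for HES4 at -0.14 without adherent shCtrl replicate 3 and -0.21 without sphere shSigma replicate 1. JAG2 was positive, at 0.022 to 0.24, without adherent shCtrl replicate 1 or 2, adherent shSigma replicate 2, sphere shCtrl replicate 1 or sphere shSigma replicate 3.

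Other genes of the pathway were taken from a list of 54, of which 49 or 50 passed the filter in each comparison. In spheres the knockdown raised 18 and lowered 13 of 50, and in adherent cells it raised 9 and lowered 12 of 49. In spheres against adherent cells 19 rose and 14 fell in shCtrl, and 10 rose and 11 fell in shSigma. The interaction was higher in 6 and lower in 8 of 50. The raised share of the list was 18.4% in the adherent and 36% in the sphere knockdown, 38.8% in control and 20.4% in shSigma spheres against adherent cells and 12% in the interaction, beside 22.3%, 30.2%, 27.4%, 21.9% and 12.7% of all genes. The lowered share was 24.5%, 26%, 28.6%, 22.4% and 16% in the same order, beside 27.7%, 30.9%, 26.3%, 25.2% and 15.6% of all genes. The list's median, on the log2 scale, lay between 0.00265 and 0.14 in the 5 comparisons.

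Among the other targets, NRARP, which encodes a feedback inhibitor induced by Notch, fell with the knockdown in both cultures. Its mean was 2.36 ± 0.32 CPM in adherent shCtrl, 0.925 ± 0.25 in adherent shSigma, 7.40 ± 0.82 in sphere shCtrl and 2.81 ± 0.33 CPM in sphere shSigma libraries (SD, n = 3). The log2 fold change was -1.41 (SE 0.23, adjusted p = 0.00158) in adherent cells and -1.39 (SE 0.15, adjusted p = 7.63e-06) in spheres, and the interaction was -0.052 (SE 0.30, adjusted p = 0.923). NRARP rose in spheres by 1.64 in shCtrl and 1.61 in shSigma cells. After the median of the 40 nearest genes was subtracted these rises were 0.86 and 0.91, both still called. NRARP thus had separate groups in the adherent knockdown where those of HES1 overlapped. HES2 followed another course, with a fall of 1.05 on the log2 scale in shSigma spheres, a rise of 1.30 in control spheres and -1.18 for the interaction (adjusted p = 0.00324). HES6 rose by 1.37 in control spheres, and by 0.47 with the GC correction. HEY2, at 5 to 30 counts per library, rose by 1.02 with the knockdown in spheres and by 1.08 in shSigma spheres against adherent cells, the latter not called by DESeq2 (adjusted p = 0.074).

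Among ligands and receptor-modifying enzymes, DLL4, a Delta ligand, rose by 2.02 in control spheres and fell by 1.44 on the log2 scale with the knockdown in spheres (adjusted p = 0.00026), the interaction being -1.34 (adjusted p = 0.0291). It had 7 to 43 counts per library, and the interaction lost its call without adherent shCtrl replicate 1 or 2, adherent shSigma replicate 1 or 3, sphere shCtrl replicate 1, or sphere shSigma replicate 2 or 3, with values from -1.32 to -1.06, as well as by DESeq2 (adjusted p = 0.129) and with no filter (adjusted p = 0.0536). DLK2, a ligand-like protein, rose by 1.84 in control spheres. MFNG, a relative of LFNG, rose with the knockdown by 1.76 in adherent cells and by 1.86 in spheres, and by 1.07 in shSigma spheres against adherent cells. It was thus raised beside LFNG in depleted spheres, at 3.06 ± 0.25 against 0.827 ± 0.21 CPM in control spheres.

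The Deltex genes, which encode ubiquitin ligases of which some act on Notch receptors, moved in different directions with the knockdown. DTX1 fell by 1.81 on the log2 scale in adherent cells and by 2.17 in spheres, while DTX2 rose by 2.66 and 2.93. The adherent call of DTX2 was lost with no filter, with the replicate block and without adherent shCtrl replicate 1 or 2 or adherent shSigma replicate 1 or 2, at 2.26 to 2.64, and after subtraction of the nearest genes (1.98). DTX3L rose by 1.11 in adherent cells. DTX4 rose by 1.40 in adherent cells and fell by 1.06 on the log2 scale in spheres (interaction -2.53, SE 0.23, adjusted p = 2.34e-06), and it fell by 1.97 in shSigma spheres against adherent cells.

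Of the nuclear cofactors, CREBBP, an acetyltransferase of the activating complex, rose by 1.04 with the knockdown in spheres. TLE genes encode corepressors that HES proteins recruit. TLE2 rose in spheres by 1.66 in shCtrl and 1.18 in shSigma cells, the latter not called after subtraction of the nearest genes (0.68, adjusted p = 0.0571). With the GC correction the rises of TLE2 were 0.86 and 0.45. TLE3 rose by 1.79 with the knockdown in adherent cells (interaction -1.58, adjusted p = 9.8e-05), and the interaction of TLE4 was 1.33 (adjusted p = 2.14e-06). RBPJ itself, at group means of 93.4 to 144 CPM, and the receptor-cleaving proteases ADAM10 and ADAM17, at 174 to 235 CPM, were well expressed in all groups. RBPJ rose by 0.45 with the knockdown in adherent cells, fell by 0.50 on the log2 scale in shSigma spheres against adherent cells and had an interaction of -0.42. ADAM17 fell by 0.43 with the knockdown in adherent cells and by 0.32 in control spheres, with 0.41 for the interaction, and ADAM10 rose by 0.35 with the knockdown in spheres and fell by 0.22 in control spheres, with 0.30 for the interaction. All of these passed an adjusted p of 0.05 in edgeR's quasi-likelihood test, although with the GC correction and replicate block neither ADAM10 (-0.052, adjusted p = 0.488) nor ADAM17 (-0.16, adjusted p = 0.0741) was called in control spheres, and the ADAM10 interaction was lost in 4 of the fits that left out a library.

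**Figure D4:**
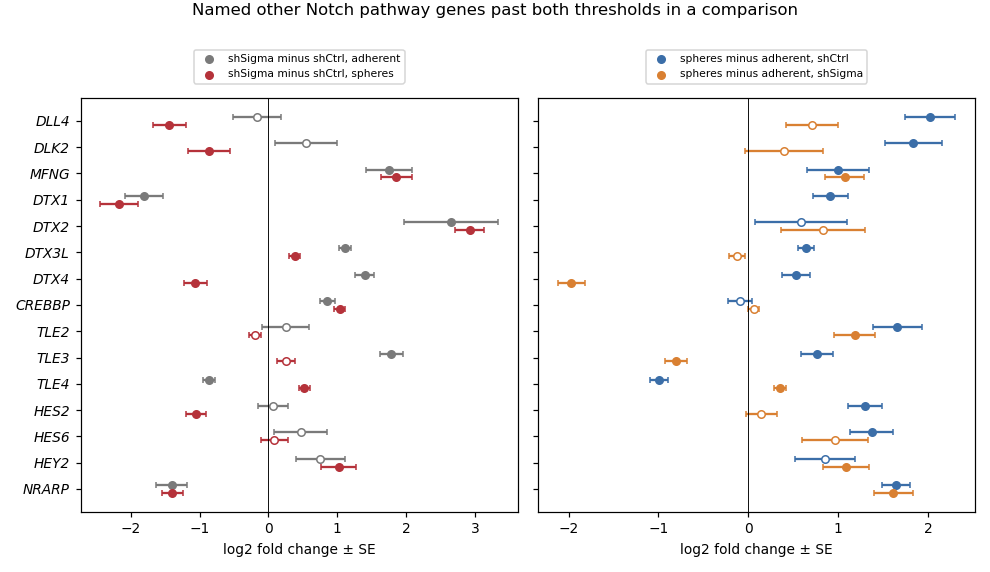
Log2 fold change with its SE (horizontal bar) of the other pathway genes named here, which passed an adjusted p of 0.05 and an absolute log2 fold change of 1 in at least 1 comparison; filled points have an adjusted p under 0.05 and open points do not. NRARP lies near -1.4 for the knockdown in both cultures, whereas DTX4 is at 1.40 in adherent cells and -1.06 in spheres.

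The genes most like the widest-ranging members were named over the 12 libraries by Pearson's r of log2(CPM + 0.5) among 10775 genes. This is a description, since the libraries fall into 4 groups and many genes separate those groups. NOTCH3 was most like TM7SF2 (r = 0.994), GSN (r = 0.994) and SYNGR1 (r = 0.993). HES1 was most like SLC44A2 (r = 0.990), GDF15 (r = 0.990) and DIRAS3 (r = 0.989), and JAG1 was most like SLC1A4 (r = 0.991), ZSWIM3 (r = 0.981) and ZNF710 (r = 0.980). HES1 and JAG1 had r = 0.928 with each other, at rank 137 among the genes like HES1 and rank 95 among those like JAG1.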

How the data were processed

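RNA of 4 groups of 3 DU145 replicates was sequenced. Per the labels and the study's methods, directional libraries were prepared from 800 ng of RNA and read for 75 bases from one end; the authors aligned to GRCh38.p12 and counted reads per gene with STAR 2.6.1c, and they deposited raw counts without normalization. Annotation, strand setting and handling of multiply aligned reads are not given in the sources used here, so genes within or beside others (MIR4673 in NOTCH1, MIR6795 in NOTCH3, MIR6870 in JAG1, MIR6765 in JAG2, MIR4648 in LFNG) and copies of NOTCH2 are less certain. The authors tested with DESeq2.

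Symbols, positions and exon lengths came from GENCODE release 44, which named 26153 of 28747 identifiers. Counts were fitted with edgeR 4.0.16 (TMM, filterByExpr at a minimum count of 10, robust quasi-likelihood test, two-sided, prior count 0.125) and adjusted by Benjamini-Hochberg over all genes tested. Each comparison was fitted on its own 6 libraries and the interaction on all 12. Genes at an adjusted p under 0.05 are called. The SE is the absolute log2 fold change divided by the square root of F. Levels are CPM with TMM over all libraries, and for comparison between genes CPM per kb of merged exons.

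All 10 members, pathway genes past both thresholds and the nearest-like genes of the 3 members with the widest range were named by rule. DLL1, NOTCH4, HES5, MAML1, NOTCH2NLA, RBPJ, ADAM10 and ADAM17 are also named. The level of the gene targeted by the hairpin and some genes under this rule are not reported here. The members and lists were chosen with earlier results of these data known. As alternatives the fits were repeated with DESeq2 1.42.0, with its size factors or upper-quartile scaling, in 1 fit of all libraries, unfiltered, for genes with 10 or more counts in each library, and with a log2 fold change over 1 as well, an adjusted p under 0.01, a replicate block, each library left out, and subtraction of the median of the 40 nearest genes. A correction for GC content in 20 bins, alone and with the block, was added after the data were seen. Replicates of every pair differed by more than counting noise. A single value of 3 against 3 libraries cannot go below p = 0.1 in an exact permutation test, so none is given. The procedure was tested on simulated counts. These held no effect of GC content and no shift shared by neighbouring genes, so that test does not cover either. Tools were R 4.3.3, Python 3.11.15, pandas 2.3.3 and matplotlib 3.10.9.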

Additional observations from a re-analysis of the deposited data

Results flagged for a closer look

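The effect of the σ1R knockdown differed between tumor spheres and adherent cells, by the test of the difference itself in all 12 libraries, for HES1 (-2.14, fall in spheres, overlapping groups in adherent cells), JAG1 (-2.14, fall in spheres, rise in adherent cells), NOTCH3 (-1.66, fall in spheres, not called in adherent cells, although the rise there was called with the GC correction, 0.84 at an adjusted p of 0.00156) and NOTCH2 (0.46, a smaller fall in spheres). The NOTCH3 difference is the least certain, since its call was lost in 10 of the 12 fits that left out a library, with no filter (adjusted p = 0.0843) and with the replicate block (adjusted p = 0.0825). Dixon's test for an outlying library was not run, since it was set for groups of 4 or more.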

How the results depend on the processing

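Of 759 alternatives to the 45 log2 fold changes of members, 674 kept direction and side of the threshold. Another 45 kept direction and lost the call, 16 gained it and 24 turned sign. None of these 24 was in a value called in the main fit, although HES4 in the sphere knockdown was called after its sign turned. Knockdown in adherent cells gave 1 member higher, against 2 by DESeq2, 2 with no filter, 4 in 1 fit of all libraries, 4 with the GC correction, 3 with the GC correction and the replicate block, and 0 at an adjusted p under 0.01 or past a log2 fold change of 1 (0 to 4 with each library left out). The 1 member lower became 2 with the GC correction. The 9 pathway genes higher became 18 in 1 fit, 14 after subtraction of the nearest genes, 15 with the GC correction and 5 past the fold, and the 12 lower became 7 at 0.01, 2 past the fold and 6 to 12 with each library left out. Knockdown in spheres gave 3 members higher (1 in 1 fit, 1 past the fold) and 4 lower (2 past the fold), and 18 and 13 pathway genes (5 and 5 past the fold). In spheres against adherent shCtrl cells NOTCH2 did not pass the fold (0 lower), and the 19 pathway genes higher became 12 at 0.01 and 6 past the fold, the 14 lower 0. In shSigma cells the 6 members higher became 3 at 0.01 (3 to 5 with each library left out), the 1 lower became 0 after subtraction of the nearest genes, at 0.01 and past the fold (0 to 1 with each library left out), the 10 pathway genes higher became 5 at 0.01 and 4 past the fold (7 to 18 with each library left out) and the 11 lower 1 past the fold. The interaction gave 1 member higher (0 at 0.01 and past the fold) and 6 pathway genes higher (10 with the GC correction, 1 past the fold) and 8 lower (4 past the fold).

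The main fit did not pair samples by replicate number. The deviations of same-numbered libraries correlated at -0.73 to 0.29. These deviations also varied with GC content, so they cannot show whether same-numbered samples were prepared together. With the replicate block the pathway genes lower in the adherent knockdown were 6 instead of 12, the NOTCH3 interaction was not called, and every other count of calls stayed within 1.5 times.

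Signs turned in values that were not called in the main fit. HES4 in the sphere knockdown was -0.028 with the block, -0.21 after subtraction of the nearest genes, -0.34 with the GC correction and -0.39 with the GC correction and block (adjusted p = 0.0435), and -0.47 to 0.28 with each library left out. Subtraction of the nearest genes gave 0.037 for HEY1 in the adherent knockdown, -0.045 and -0.095 for NOTCH1 in spheres against adherent shCtrl and shSigma cells, and 0.15 for the JAG2 interaction. The NRARP interaction was 0.028 with no filter, 0.010 with at least 10 counts in every library, 0.076 with the GC correction and 0.076 with the GC correction and block. With each library left out the ranges were -0.11 to 0.068 for HES1 and -0.59 to 0.14 for HES4 in the adherent knockdown, -0.081 to 0.55 for HEY1 in spheres against adherent shSigma cells, and, for the interaction, -0.62 to 0.26 for NOTCH1, -0.45 to 0.24 for JAG2, -0.21 to 0.68 for HES4 and -0.21 to 0.21 for NRARP. The causes were not tested. Depth limits HEY1, LFNG in adherent cells, HEY2 and DLL4, which rest on low counts. It also limits MFNG, DTX1 and DTX2 in the adherent knockdown and DLK2 in spheres against adherent shCtrl cells. Each of these had fewer than 10 counts in at least 1 library of that comparison.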
